A study of Mus musculus with 11 samples.

Results

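Genes of the primary enamel knot other than Shh, together with genes of the Eda pathway, were read in maxillary molar tooth germs of mouse embryos at E14.5, the cap stage. In the paper's sections at this age, the wild-type first molar was a cap. It had taken in a tooth rudiment from the toothless gap before it. In Cilk1-/- this rudiment survived and was the cap-stage germ, while the first molar was still a bud. The paper also found the Cilk1-/- germ smaller. Which of these germs each library held is not stated, so the genotypes may not be compared in the same tooth. The 7 genes, Fgf4, Fgf9, Cdkn1a, Dkk4, Eda, Edar and Edaradd, were chosen by symbol, and all 7 were among the 16755 genes of the table. RNA-sequencing libraries came from 4 wild-type (Cilk1+/+), 4 Cilk1-/- and 3 compound mutant (Cilk1-/-;PCS1-MRCS1△/△) samples, with n = 6 per biological replicate and no statement of whether 6 counts germs or embryos. Embryos were littermates of both sexes on the C57BL/6 background. Cilk1, a kinase of the primary cilium, had lost exon 6 in the whole embryo after germline recombination by EIIa-Cre, so epithelium and mesenchyme both carried the deletion. The compound mutants carried this deletion and, on both alleles, a deletion from PCS1 to MRCS1 that removes enhancers of oral Shh expression, and a group with that deletion alone was not analysed here. The comparisons ask what the loss of Cilk1, and the loss of both, did to the RNA of these genes.

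The primary enamel knot is a cluster of non-dividing epithelial cells at the tip of the cap-stage tooth bud. Its cells leave the cell cycle with expression of Cdkn1a and secrete Shh, Fgf, Bmp and Wnt ligands, which act on the dividing epithelium and on the dental mesenchyme. The Eda ligand binds the receptor Edar, and the adaptor Edaradd relays the signal to NF-kB. In tooth, hair and gland placodes this pathway sets the size and spacing of signalling centres, and its loss gives small molars with few cusps in mice.

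On the GRCm38 build, the annotation placed Fgf4 at chr7:144847367-144865243 and Fgf9 at chr14:58070547-58112720, both on the plus strand. Cdkn1a was at chr17:29090976-29100727 and Dkk4 at chr8:22624043-22627547, also on the plus strand. Eda was at chrX:99975606-100400762 on the plus strand, Edar at chr10:58600789-58675654 and Edaradd at chr13:12472632-12520438, both on the minus strand. All 7 are protein-coding. The exons of Cdkn1a overlap those of AC167363.2, an annotated transcript on the opposite strand, and whether reads were counted by strand is not given in the sources used here, so reads of both could not be told apart. No other member shared exonic sequence with another annotated gene.

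Sequence upstream of the start is shown for the genes whose difference in at least 1 comparison had an unadjusted p under 0.05, namely Cdkn1a with its 2 annotated starts, Edar and Eda. The 250 bases before each start were taken from RefSeq promoter entries on GRCm38.p6, in which 6 of the 7 members had an entry and Dkk4 did not. They lie at chr17:29090729-29090978 (plus strand) and chr17:29093519-29093768 (plus strand) for Cdkn1a, at chr10:58675697-58675946 (minus strand) for Edar and at chrX:99975356-99975605 (plus strand) for Eda. Capitals mark matches, on either strand, to the motifs searched, which were the TATA box TATAAA, the Sp1 box GGGCGG, the TCF/LEF box CTTTGA, the GLI motif GACCACCCA, the kappaB motif and the p53 half-site.
Cdkn1a, first start: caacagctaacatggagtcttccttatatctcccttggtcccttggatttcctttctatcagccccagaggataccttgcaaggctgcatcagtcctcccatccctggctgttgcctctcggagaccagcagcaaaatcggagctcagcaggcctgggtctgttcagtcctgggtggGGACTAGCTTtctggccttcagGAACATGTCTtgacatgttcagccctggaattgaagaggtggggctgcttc
Cdkn1a, second start: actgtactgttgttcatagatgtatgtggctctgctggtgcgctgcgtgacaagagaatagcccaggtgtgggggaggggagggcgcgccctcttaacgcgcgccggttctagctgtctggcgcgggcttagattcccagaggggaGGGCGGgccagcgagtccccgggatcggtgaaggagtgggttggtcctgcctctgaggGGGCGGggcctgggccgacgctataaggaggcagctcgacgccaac
Edar: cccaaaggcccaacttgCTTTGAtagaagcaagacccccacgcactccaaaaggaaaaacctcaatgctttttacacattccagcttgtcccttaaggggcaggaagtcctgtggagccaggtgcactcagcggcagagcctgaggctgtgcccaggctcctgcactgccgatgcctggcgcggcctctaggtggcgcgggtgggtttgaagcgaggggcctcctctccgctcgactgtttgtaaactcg
Eda: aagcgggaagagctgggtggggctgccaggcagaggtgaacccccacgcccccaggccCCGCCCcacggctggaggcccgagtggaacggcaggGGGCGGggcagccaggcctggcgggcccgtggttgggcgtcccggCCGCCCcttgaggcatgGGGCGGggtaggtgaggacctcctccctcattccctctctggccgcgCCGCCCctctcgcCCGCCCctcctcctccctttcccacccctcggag
Counting from the last base before the start as -1, the first Cdkn1a window held p53 half-site matches beginning at -73 and -51, and 7.13% of all 32851 RefSeq windows of this length held at least 1. The second Cdkn1a window held Sp1 matches beginning at -104 and -46, a motif found in 32.7% of windows. Edar held a TCF/LEF match beginning at -233, against 13.8% of windows, and Eda held 6 Sp1 matches. None of these 4 windows held a match to TATAAA, GLI or kappaB, found in 12.4%, 0.225% and 7.25% of windows. Variants of TATAAA, such as the tataag near the end of the second Cdkn1a window, were not searched, so a TATA box cannot be called absent. Matches to different motifs did not overlap, and they are a description of the letters alone.

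The values are on a log2(value + 1) scale, where the value is most probably FPKM, that is, reads per gene length and library size. They are not plain FPKM on that scale, since 328 values in 257 genes lie below 0, which log2(FPKM + 1) cannot give, so a later adjustment that the sources used here do not state was probably made, possibly the removal of a replicate term. Levels, SDs and values turned back from the log2 scale below are those of the adjusted values. A fold change is of the value plus 1, and understates the change of a low gene. No counts were used here and sequencing depth is unknown, so the precision of each value is that of the spread between libraries. A gene was called where limma, fitted over all genes, gave both an adjusted p under 0.05 and a 1.5-fold or larger difference.

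The libraries were first read against their labels. Ick, the older symbol of Cilk1, was at 3.53 ± 0.0751 (log2 value, SD, n = 4) in the wild type, 2.80 ± 0.0661 (n = 4) in Cilk1-/- and 2.64 ± 0.0317 (n = 3) in the compound mutant, with no overlap between wild type and either mutant. All 12 markers of dental and oral epithelium and all 12 of dental mesenchyme were present in every genotype. Compound mutant replicate 1 stood apart, at -48.5 on a first principal component on which the other 10 libraries lay between -6.63 and 11.2. Its summed epithelial markers were 850, against 1262 to 1645 in the wild type, 1385 to 1669 in Cilk1-/- and 1111 and 1594 in the other compound mutants, whereas the mean log2 level of the same 12 markers was 5.77, within the wild-type range of 5.69 to 5.91 and above compound mutant replicate 2 at 5.57. The 12 mesenchymal markers had their lowest mean log2 level in this library, 6.404, against 6.73 in compound mutant replicate 3 and at least 6.93 in the other 9. Its 8 neuronal markers summed to 197 and its 5 listed cartilage markers to 591, against at most 62.2 and 42.1 in the other 10 libraries. Erythroid markers were lowest in compound mutant replicate 3, with a sum of 1060 and a mean log2 level of 4.29. The other 10 libraries had sums of 2889 to 4181 and means of 5.82 to 6.67. Bone markers summed to 318 in compound mutant replicate 2, against 97.4 to 237 elsewhere. By mean log2 level they were at 4.77 there, below the 4.82 of wild-type replicate 3. Wild-type and Cilk1-/- libraries of the same number also deviated from their genotype means in opposite directions over all genes, so same-numbered libraries were not independent, and a fit with the number as a block is given where it changed a call. The fit that gave the calls takes all libraries as independent, so its p-values do not allow for this pairing and may be too small.

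In the wild type, Cdkn1a, which encodes the cyclin-dependent kinase inhibitor p21, had the highest level of the 7 genes, at 3.79 ± 0.345 (log2 value, SD, n = 4), and its libraries did not overlap those of any other member. Eda followed at 2.55 ± 0.0658, Dkk4 at 2.12 ± 0.292, Edaradd at 1.99 ± 0.228, Edar at 1.93 ± 0.201, Fgf9 at 1.73 ± 0.275 and Fgf4 at 1.45 ± 0.201. From Eda downward, each gene overlapped its neighbour in this order. The mean of Cdkn1a stood at the 65.0th percentile of all genes and that of Fgf4 at the 28.5th. Cdkn1a and Eda kept the first and second place in both mutants, Edar came next in both, and the order of the others changed among values that overlapped.

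**Figure D1:**
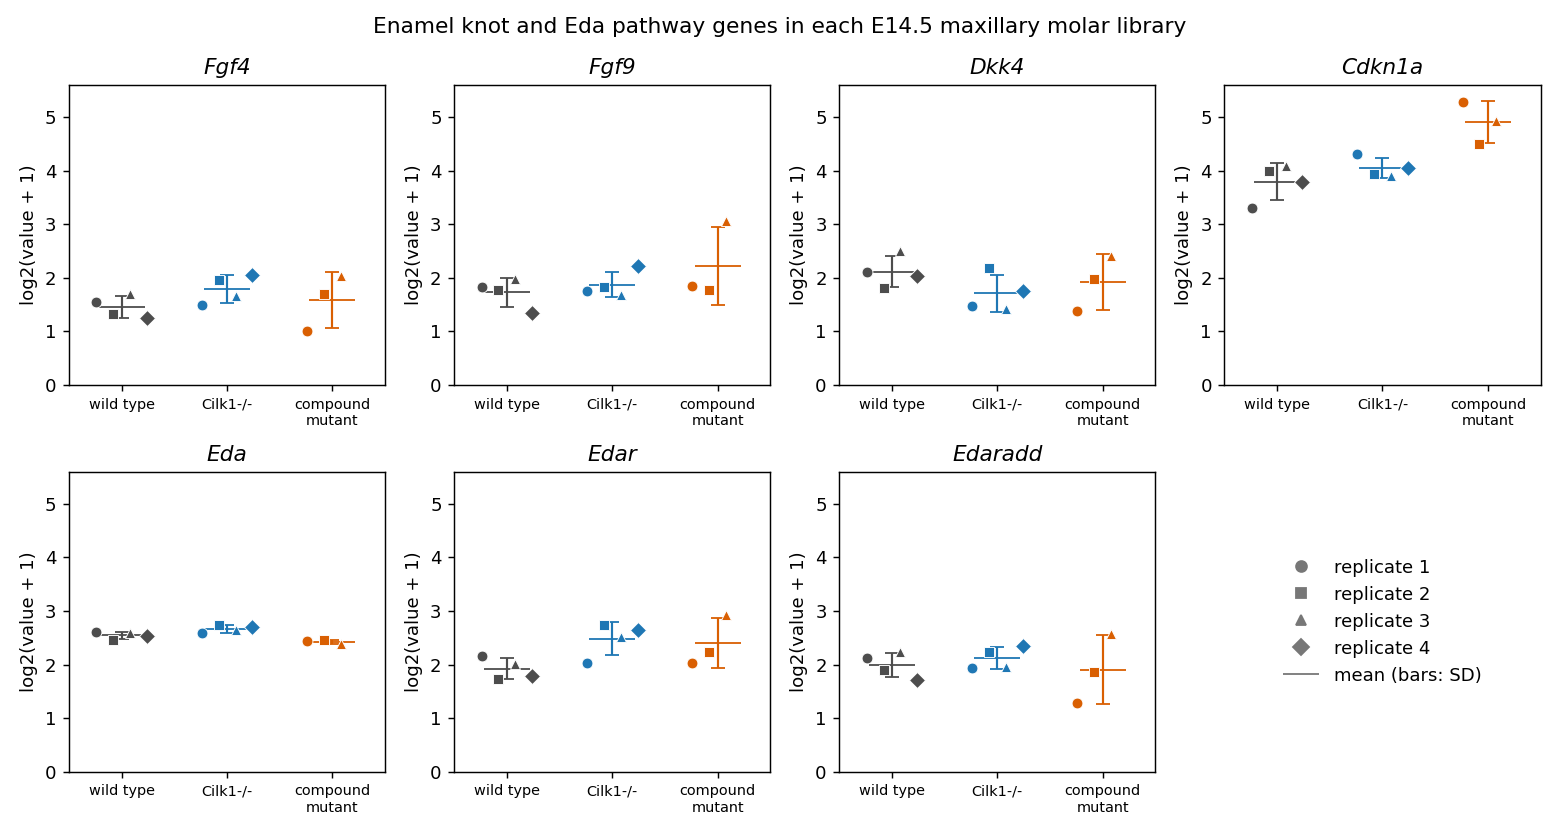
Deposited log2(value + 1) level of each of the 7 genes in the 4 wild-type, 4 Cilk1-/- and 3 compound mutant libraries, with 1 point per library, shapes for replicate numbers, horizontal lines for means and bars for SD. Cdkn1a in the 3 compound mutant libraries lies between 4.50 and 5.28, above every library of the other genotypes, whereas compound mutant replicate 3 lies apart from its group for Fgf9.

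Fgf4 and Fgf9 encode FGF ligands that the knot and, for Fgf9, more of the dental epithelium secrete. Fgf4 was at 1.55, 1.32, 1.69 and 1.25 in wild-type replicates 1 to 4, at 1.503, 1.96, 1.66 and 2.05 in Cilk1-/- and at 1.01, 1.71 and 2.03 in compound mutant replicates 1 to 3. The 3 ranges overlapped, with compound mutant replicate 1 below all other libraries and Cilk1-/- replicate 4 above them. Neither mutant passed the test for Fgf4, with a log2 difference from the wild type of 0.34 (95% interval -0.12 to 0.80, adjusted p = 0.392) in Cilk1-/- and 0.13 (-0.37 to 0.62, adjusted p = 0.750) in the compound mutant. Fgf4 differed by -0.21 between compound mutant and Cilk1-/- (-0.71 to 0.29, adjusted p = 0.608). The first 2 intervals include a 1.5-fold higher level and the last a 1.5-fold lower one, so differences of that size could not be told from none in these libraries.

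Fgf9 was at 1.82, 1.77, 1.98 and 1.34 in the wild type, at 1.76, 1.83, 1.68 and 2.21 in Cilk1-/- and at 1.85, 1.77 and 3.06 in the compound mutant. Compound mutant replicate 3 exceeded the other 10 libraries, and the other compound mutants lay within the wild-type range. The log2 difference of Fgf9 from the wild type was 0.14 in Cilk1-/- (95% interval -0.45 to 0.73, adjusted p = 0.817) and 0.50 in the compound mutant (-0.14 to 1.13, adjusted p = 0.288). Compound mutant and Cilk1-/- differed by 0.36 (-0.28 to 0.99, adjusted p = 0.485). Without compound mutant replicate 3, Fgf9 was 0.0795 above the wild type in the compound mutant. In the same library, Shh, named here after its values were seen, was at 6.51, against 3.66 and 4.02 in the other compound mutants and 4.18 to 5.66 in the remaining 8 libraries.

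Of 15 genes, which were FGF receptors and feedback regulators with Runx2, Fgf3 and Fgf10, all were listed. None was called in Cilk1-/-, beside 0.370% of all genes. In the compound mutant 1 rose against the wild type, Fgfr3, a receptor for FGF9, at 4.57 ± 0.489 (SD, n = 3) against 3.79 ± 0.134 (n = 4), with a log2 difference of 0.77 (SE 0.194, adjusted p = 0.0434, and 0.163 with the replicate block). Fgfr3 was called in 2 of the 11 fits that left out 1 library. It was at 0.53 (adjusted p = 0.0865) without compound mutant replicate 1, the library with high neuronal and cartilage markers. The part of other cell types in the Fgfr3 level was not tested. In that comparison 1.25% of all genes were called, and the median difference of the list was -0.0194, beside -0.0016 over all genes. Between compound mutant and Cilk1-/- none was called, beside 0.543% of all genes, and the list's median was 0.0851, beside an all-gene median of 0.0028. In Cilk1-/- against wild type the median was 0.0024, beside 0.0032 over all genes. Runx2, named after its value was seen and a transcription factor of the dental mesenchyme, differed by -0.50 between compound mutant and Cilk1-/- with an adjusted p of 0.0417 (0.192 with the block) but stayed under 1.5-fold.

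Dkk4, a secreted Wnt inhibitor induced in placodes and enamel knots, was at 2.11, 1.81, 2.51 and 2.04 in the wild type and at 1.48, 2.18, 1.42 and 1.76 in Cilk1-/-. The compound mutants had 1.37, 1.98 and 2.41. In Cilk1-/- 3 of 4 libraries lay below all wild-type libraries, and replicate 2 lay above 3 of the 4. Dkk4 did not pass the test in any comparison, with log2 differences from the wild type of -0.41 (95% interval -0.94 to 0.12, adjusted p = 0.365) in Cilk1-/- and -0.20 (-0.77 to 0.38, adjusted p = 0.661) in the compound mutant. Between the mutants the difference was 0.21 (-0.36 to 0.79, adjusted p = 0.655).

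Cdkn1a was the 1 member that was called. It rose in the compound mutant, with log2 levels of 5.28, 4.50 and 4.93 against 3.31, 3.98, 4.08 and 3.79 in the wild type, while Cilk1-/- libraries had 4.31, 3.93, 3.89 and 4.05. All 3 compound mutant libraries were above all 8 others. Turned back from the log2 scale, Cdkn1a was at 13.1 ± 3.10 (SD, n = 4) in the wild type, 15.6 ± 2.28 (n = 4) in Cilk1-/- and 29.6 ± 8.06 (n = 3) with both deletions. Its log2 level exceeded that of the wild type by 1.11 (SE 0.208, 95% interval 0.65 to 1.57), a 2.16-fold difference of the value plus 1, with an adjusted p of 0.0176. An exact two-sided permutation test of the 2 groups gave p = 0.0286, the smallest that 3 against 4 libraries allow. The test takes the libraries as exchangeable and allows for no pairing by number. Over all genes, 1.25% were called in this comparison, against 1 of 7 members, and the libraries of wild type and compound mutant were separate in 18.0% of all genes and in 2 of 7 members (Cdkn1a and Eda).

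The call of Cdkn1a depended on how the spread was estimated, whereas its difference stayed between 0.71 and 1.31. With the replicate number as a block, the difference was 1.11 and the adjusted p 0.125, 0.155% of all genes and 0 of 7 members were called, and the pairing of the compound mutant libraries with a number rests on the number alone. With the compound mutants put in the block of replicate 4 instead, whose labels share their extraction text, the adjusted p was 0.608. Fitted on wild type and compound mutant only, the adjusted p was 0.0954, and it was 0.167 with a term for the label set, that is, whether a library belongs with replicates 1 to 3 of wild type and Cilk1-/- (set 1) or with their replicate 4 and the compound mutants (set 2), which the labels describe in separate extraction texts. Left out singly, wild-type replicate 4 was the 1 library whose removal raised the adjusted p past the threshold, to 0.0580. Without compound mutant replicate 1, the library with high neuronal and cartilage markers and the highest Cdkn1a, the difference was 0.93 (adjusted p = 0.0373), and without compound mutant replicates 1 and 3 it was 0.71 (adjusted p = 0.151). Compound mutant replicate 2, at 4.50 for Cdkn1a, had summed neuronal markers of 33.6 and cartilage markers of 42.1, against 17.6 to 31.9 and 21.6 to 34.1 in the 8 wild-type and Cilk1-/- libraries. Replicate 3, at 4.93, had 62.2 and 36.2. The summed neuronal markers of the 3 compound mutants (197, 62.2 and 33.6 for replicates 1, 3 and 2) had the same order as their Cdkn1a levels. Their summed cartilage markers did not. By mean log2 level, replicate 2 was at 1.44 for neuronal and 2.31 for cartilage markers. Both lay within the Cilk1-/- ranges of 1.27 to 1.68 and 1.82 to 2.35. The part of other cell types in the Cdkn1a level was not tested further. In bulk RNA, fewer cells of a type and less RNA per cell cannot be told apart, for this gene and for the others.

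**Figure D2:**
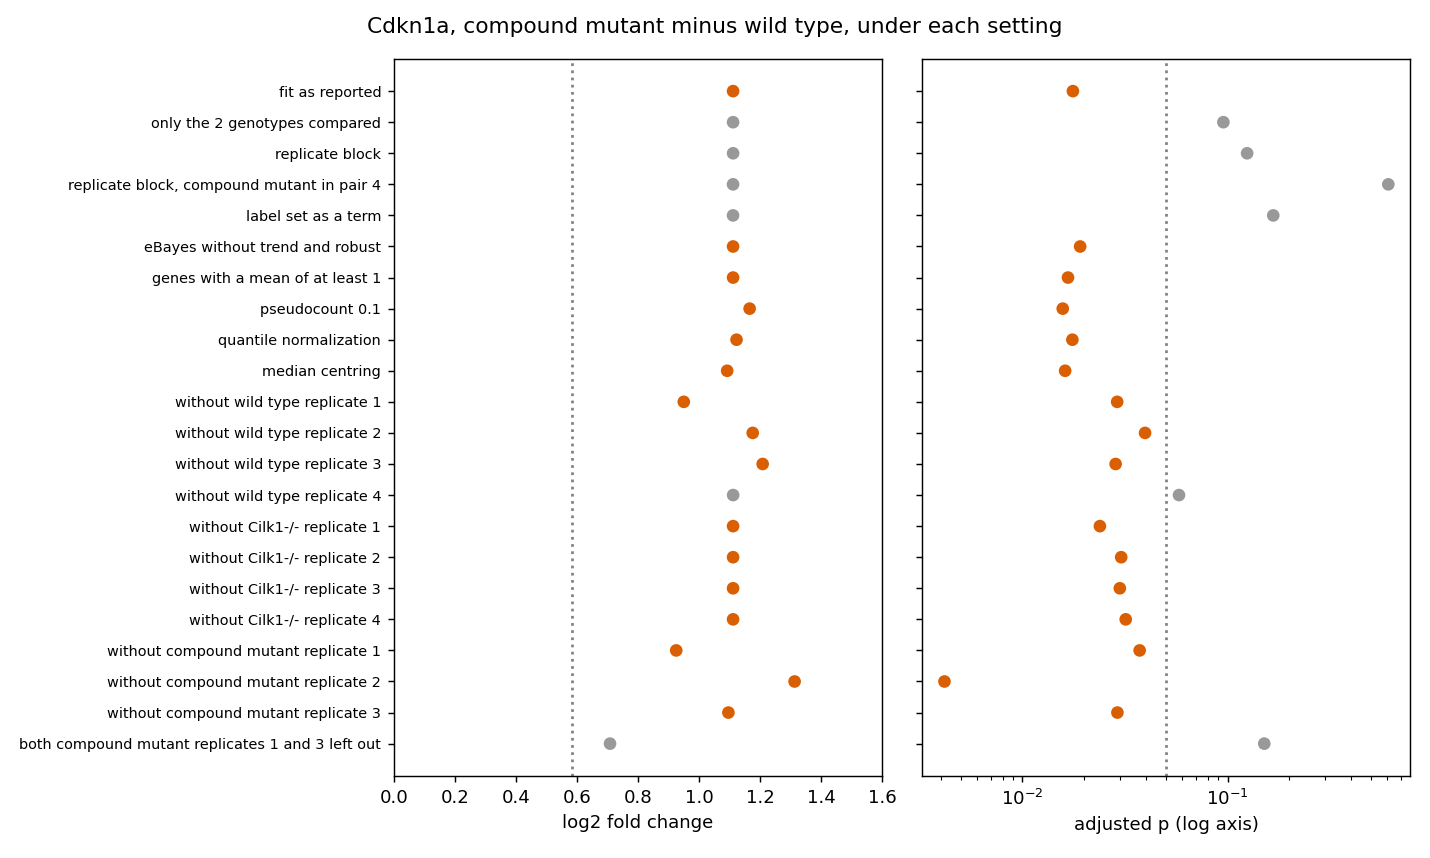
Log2 difference of Cdkn1a between compound mutant and wild type (left) and its adjusted p on a log axis (right) under each way of fitting, 1 point per setting. Dotted lines mark 1.5-fold and an adjusted p of 0.05, orange points pass both and grey points do not. The difference lies between 0.71 and 1.31 throughout, and 6 of 21 alternatives do not pass.

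In Cilk1-/- alone, Cdkn1a differed from the wild type by 0.25 (95% interval -0.17 to 0.68, adjusted p = 0.496), with 1 of 4 libraries above all of the wild type. The compound mutant exceeded Cilk1-/- by 0.86 (SE 0.208, 95% interval 0.40 to 1.32), with all 3 libraries above all 4 (exact permutation test, p = 0.0286, the smallest possible). The adjusted p was 0.0522 in that comparison, just past the threshold, so the gene was not called. The Cilk1-/- libraries enter both of these differences. Compound mutants belong to label set 2 only, with wild-type and Cilk1-/- replicate 4, and within that set their mean exceeded the single wild-type library by 1.11 and the single Cilk1-/- library by 0.86.

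Other inhibitors of cyclin-dependent kinases did not pass. Over all genes, 0.370% were called in Cilk1-/- and 1.25% in the compound mutant against wild type, and 0.543% between the mutants. Of 6 listed (Cdkn1b, Cdkn1c, Cdkn2a, Cdkn2b, Cdkn2c and Cdkn2d) none was called in any comparison, and in the compound mutant their median difference from the wild type was -0.14, beside -0.0016 over all genes. Their median was -0.0749 in Cilk1-/- against wild type, beside 0.0032, and 0.0436 between the mutants, beside 0.0028. Cdkn1b, which encodes p27 and is named after its value was seen, was 0.24 above the wild type in the compound mutant with an adjusted p of 0.0344 (0.155 with the block), under the 1.5-fold minimum. Of 16 targets of p53, a known activator of Cdkn1a, 15 were listed (Gdf15 was not among the listed genes) and none was called. Their median difference was 0.0484 in the compound mutant and 0.0307 in Cilk1-/- against wild type, and 0.0396 between the mutants. In the compound mutant against wild type the 15 ran from -0.17 to 0.50, with 10 above 0. Mdm2, a standard readout of p53, was 0.13 above the wild type in the compound mutant (adjusted p = 0.185). Zmat3 in the compound mutant (0.25, adjusted p = 0.0266, and 0.165 with the block) and Trp53inp1 in Cilk1-/- (0.36, adjusted p = 0.0427, and 0.1601 with the block) were the 2 with an adjusted p under 0.05 and no 1.5-fold difference. These 3 genes were named after their values were seen.

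Other genes of the enamel knot, 14 in all and all listed, gave 1 call, in the compound mutant against wild type, where 1.25% of all genes were called. Bmp2, a secreted ligand of the knot, rose in the compound mutant, at 3.12 ± 0.586 (SD, n = 3) against 2.17 ± 0.113 (n = 4) in the wild type, a log2 difference of 0.95 (SE 0.212, adjusted p = 0.0302, and 0.135 with the replicate block). Bmp2 was called in 7 of the 11 fits without 1 library, not in those without a wild-type library (adjusted p = 0.0538 to 0.0869), and was at 0.61 (adjusted p = 0.00987) without compound mutant replicate 3. None of the 14 was called in Cilk1-/- or between the mutants, beside 0.370% and 0.543% of all genes. Against the wild type their median difference was 0.14 in Cilk1-/- libraries and 0.0630 in compound mutant libraries, and 0.0017 between the mutants. The all-gene medians beside these were 0.0032, -0.0016 and 0.0028.

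Eda, the ligand of the pathway, had the narrowest spread of the 7 genes. Its log2 levels were 2.61, 2.46, 2.59 and 2.53 in the wild type, 2.58, 2.74, 2.64 and 2.70 in Cilk1-/- and 2.43, 2.46 and 2.38 with both deletions. These 3 were the lowest of the 11, by a margin of less than 0.01 for replicate 2, and 3 of 4 Cilk1-/- libraries were above all of the wild type. Compound mutant and Cilk1-/- differed by -0.24 (SE 0.0566, 95% interval -0.36 to -0.11), with an adjusted p of 0.0489 and an exact permutation p of 0.0286, the smallest possible. The interval lies within 1.5-fold, so Eda was not called, and 3.33% of all genes had an adjusted p under 0.05 with no minimum fold in that comparison. With the replicate block the adjusted p was 0.264, and with single libraries left out it ran from 0.0388 to 0.125, under 0.05 in 1 of 11 fits. Against the wild type, Eda differed by 0.12 in Cilk1-/- (-0.000089 to 0.23, adjusted p = 0.242). In the compound mutant its difference was -0.12 (-0.25 to 0.0018, adjusted p = 0.193, exact permutation p = 0.0571).

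Edar, the receptor that binds Eda and that epithelial cells of placodes and knots carry, had the largest difference of the 7 in Cilk1-/-. Wild-type libraries were at 2.17, 1.73, 2.01 and 1.79, Cilk1-/- libraries at 2.03, 2.73, 2.51 and 2.65 and compound mutant libraries at 2.03, 2.24 and 2.92. Replicates 2, 3 and 4 of Cilk1-/- were above all of the wild type, and replicate 1 lay within it. The difference was 0.56 (SE 0.205, 95% interval 0.10 to 1.01), a 1.47-fold difference of the value plus 1, and the adjusted p was 0.159, so Edar was not called. An exact permutation test gave p = 0.0571, against a smallest possible 0.0286, and swapping within same-numbered pairs gave an exact p of 0.25, with Cilk1-/- higher in 3 of 4 pairs. With 4 pairs this swap cannot give a p under 0.05, whatever the values. In this comparison 0 of 7 members were called, beside 0.370% of all genes, and Edar alone had an unadjusted p under 0.05, beside 20.7% of all genes.

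For Edar, the fit on these 2 genotypes alone gave an adjusted p of 0.0416 with the difference still under 1.5-fold, and other alternatives reached as high as 0.486. With a pseudocount of 0.1 the difference was 0.69, past 1.5-fold, at an adjusted p of 0.150. Leaving out 1 library at a time gave 0.47 to 0.71, on both sides of 1.5-fold, with adjusted p from 0.0640 to 0.334. Within label set 1 the difference was 0.45 (3 against 3 libraries) and within set 2 it was 0.86 (1 against 1). The compound mutant was 0.47 above the wild type for Edar (-0.0178 to 0.96, adjusted p = 0.201), with 2 of 3 libraries above all of the wild type. It differed from Cilk1-/- by -0.0841 (-0.57 to 0.41, adjusted p = 0.857). Both mutants were compared with the same wild-type libraries.

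Edaradd, the death-domain adaptor that links Edar to the NF-kB relay, was at 2.12, 1.90, 2.23 and 1.72 in the wild type and at 1.93, 2.24, 1.96 and 2.35 in Cilk1-/-. With both deletions the libraries had 1.28, 1.87 and 2.58, the lowest and the highest of all 11 among them. None of the comparisons passed the test for Edaradd. The log2 differences were 0.13 (95% interval -0.39 to 0.65, adjusted p = 0.810) in Cilk1-/- and -0.0828 (-0.64 to 0.48, adjusted p = 0.865) in the compound mutant against the wild type, and -0.21 (-0.77 to 0.35, adjusted p = 0.653) between the mutants. In the comparison of compound mutant with Cilk1-/- 0 of 7 members were called, beside 0.543% of all genes. With an unadjusted p and the 1.5-fold minimum, Cdkn1a alone of the 7 passed there, beside 2.09% of all genes. Libraries of the mutants were separate for Cdkn1a and Eda, 2 of 7 members, beside 17.0% of all genes.

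**Figure D3:**
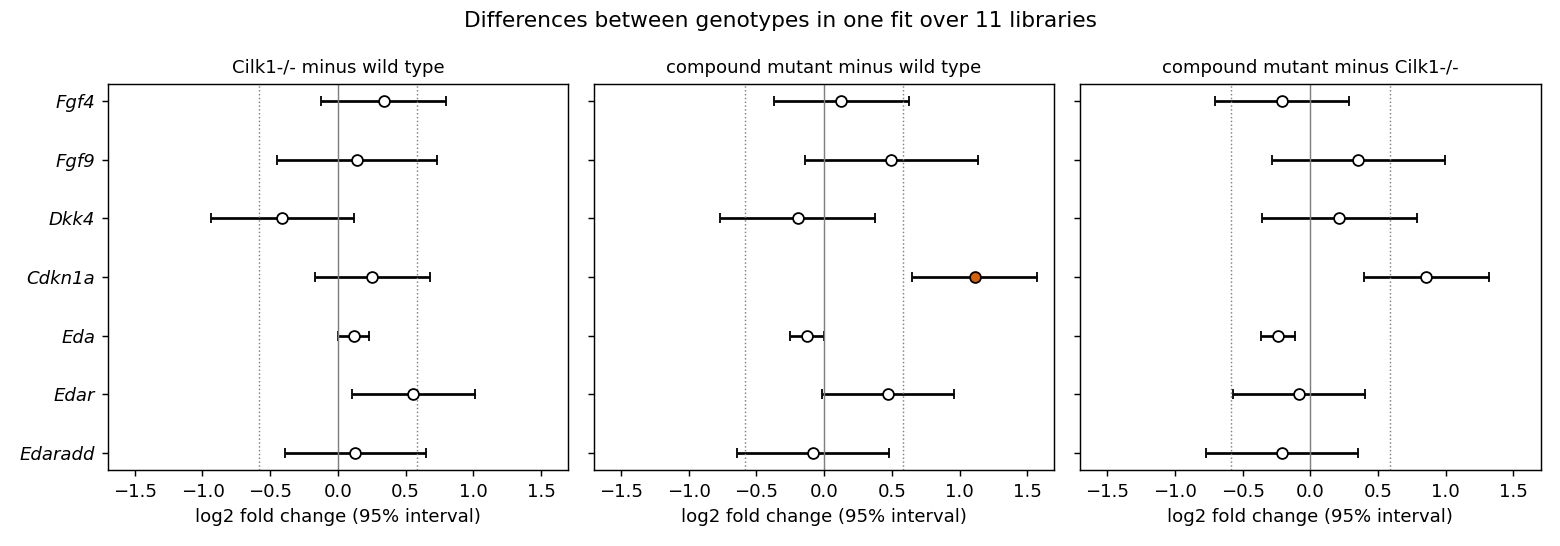
Log2 difference of each of the 7 genes in the 3 comparisons, with 95% intervals from limma, from Fgf4 at the top to Edaradd at the bottom. Dotted lines mark 1.5-fold, and the filled point, Cdkn1a between compound mutant and wild type at 1.11, is the 1 difference that was called.

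A list of 23 genes held the relay from Edar to NF-kB, from Traf6 and Map3k7 through the IKK subunits to the Rel family and its inhibitors. It also held Eda2r and Tnfrsf19, which are receptors apart from Edar. It was listed in full, and none of the 23 was called in any comparison. Their median difference was 0.0303 in Cilk1-/- (16 of 23 above 0) and -0.0747 in the compound mutant (8 of 23 above 0) against the wild type, and -0.0958 between the mutants (6 of 23). Over all genes these medians were 0.0032, -0.0016 and 0.0028, and 0.370%, 1.25% and 0.543% of all genes were called. The pair of genes with an adjusted p under 0.05 stayed under 1.5-fold and were named after their values were seen. Eda2r, which encodes the X-linked receptor for the A2 form of Eda, differed from the wild type by -0.27 in the compound mutant (adjusted p = 0.0190, and 0.161 with the replicate block). Rel, an NF-kB subunit, differed by -0.46 between compound mutant and Cilk1-/- (adjusted p = 0.0428, and 0.215 with the block).

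Of 13 genes that Eda and NF-kB induce in ectodermal placodes, 12 were listed (Cxcl11 was not) and 1 was called. The call was in the compound mutant against wild type, where 1.25% of all genes were called. Ltb, which encodes lymphotoxin beta, fell in the compound mutant, at 1.79 ± 0.633 (SD, n = 3) against 2.80 ± 0.197 (n = 4) in the wild type, a log2 difference of -1.002 (SE 0.249, adjusted p = 0.0421, and 0.127 with the block). Ltb was called in 1 of the 11 fits without 1 library, that without compound mutant replicate 2 (-1.36, adjusted p = 0.00136), and the other adjusted p ran from 0.0535 to 0.112. In Cilk1-/- the median of the list was 0.0686 against the wild type, in the compound mutant -0.0608, and between the mutants -0.20, beside the all-gene medians given for the relay.

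The members did not move as 1 group from library to library. Compound mutant replicate 3 had the highest value of all 11 libraries for Fgf9, Edar and Edaradd and the second highest for Fgf4, Dkk4 and Cdkn1a, and the lowest for Eda. Compound mutant replicate 1 had the lowest value for Fgf4, Dkk4 and Edaradd and the highest for Cdkn1a. Shh followed the same split, as the lowest of all libraries in replicate 1 and the highest in replicate 3. Replicate 1 was also the library with the lowest summed epithelial markers (850), while replicate 3, with 1594, lay within the wild-type range. By mean log2 level of the same markers, replicate 1 (5.77) and replicate 3 (5.84) both lay within that range, so the contrast held for the linear sum alone, and the part of epithelial share in these levels was not tested. Replicate 3 also had the lowest erythroid markers of all libraries (a sum of 1060), and the part of other cell types was not tested either.

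**Figure D4:**
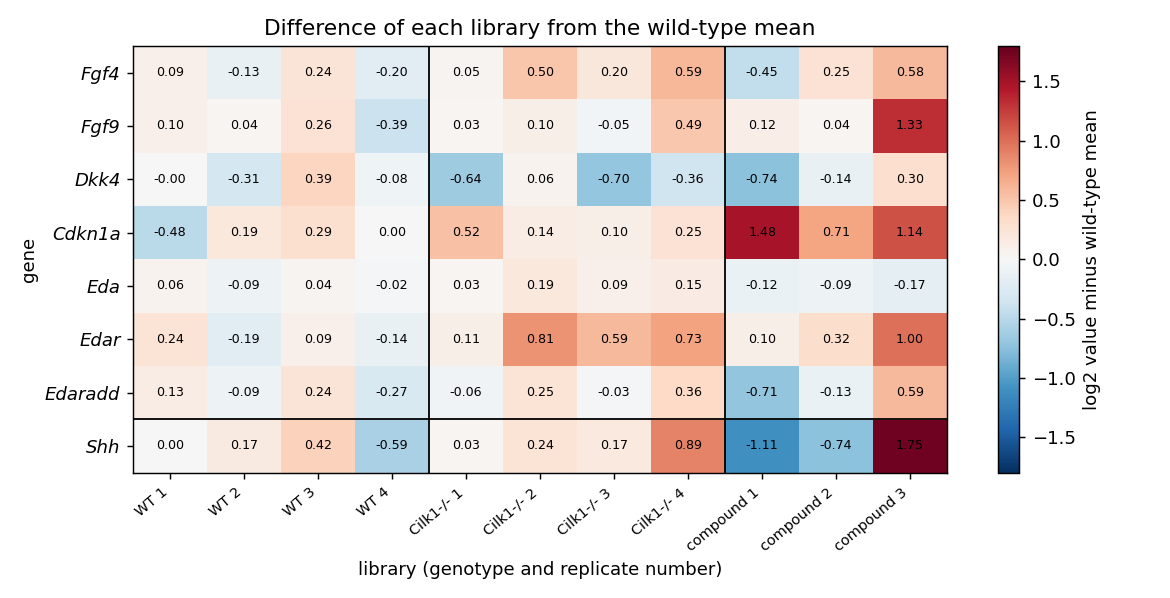
Difference of each library from the wild-type mean, on the log2 scale, for the 7 genes and for Shh in the bottom row, with 1 column per library and the value printed in each cell. Red is above and blue below the wild-type mean. Compound mutant replicate 1 is blue for Fgf4, Dkk4, Edaradd and Shh and red for Cdkn1a, whereas replicate 3 is red for every gene shown except Eda.

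Likeness of profile was measured as the root mean square difference of values standardised over the 11 libraries, where 0 means the same profile. Among the members, Fgf4 and Edaradd were the closest pair at 0.426 and Cdkn1a and Eda the farthest at 1.81. Over 13028 genes with a mean log2 value of at least 1, the closest profiles to Fgf4 were those of 1500011K16Rik (0.270), Alpl (0.277) and Wnt10b (0.303), where the median gene was at 1.46. Fgf9 was nearest to Galnt6 (0.148), Bambi (0.210) and Plac8 (0.230). Cdkn1a was nearest to Ucp2 (0.258), Tubb4a (0.318) and Zfp759 (0.347), and Dkk4 to Hist1h2bg (0.291), Pdgfb (0.338) and Pvrl1 (0.343). Eda was nearest to Sorcs2 (0.293), Armcx3 (0.327) and Slc24a3 (0.330), Edar to Tnn (0.212), Samd9l (0.280) and Gng4 (0.310), and Edaradd to Kctd14 (0.231), Susd4 (0.278) and Znrf3 (0.279). The points of each profile share libraries and normalization, so these are descriptions with no test.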

How the data were processed

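Maxillary molar germs at E14.5 were sequenced in 4 wild-type, 4 Cilk1-/- and 3 compound mutant libraries. Reads were mapped to mm10 with HISAT2 2.0.5 and counted per gene with featureCounts 1.5.0-p3, per the submitters' processing notes, and FPKM were calculated from gene length and counts. The authors deposited log2 values of 16755 genes, log2(value + 1) of what is probably FPKM, and the step that made them is not stated. In 257 genes, 328 values lie below 0, which plain log2(FPKM + 1) cannot give, so the values were probably adjusted afterwards, possibly by removing a replicate term, and totals turned back from this scale are those of adjusted values. Values turned back from this scale summed to 339970 to 364615 per library. Depth is unknown, and no count model was fitted.

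The members, gene lists and alternatives were chosen with earlier results of these data known. limma 3.58.1 in R 4.3.3 (lmFit, eBayes with trend and robust) was fitted once over the 3 genotypes and all genes, with Benjamini-Hochberg adjustment over all 16755 genes. Calls needed an adjusted p under 0.05 and at least 1.5-fold, the thresholds of the study's methods. The spread is that between the deposited replicates. Single genes were also compared by exact two-sided permutation tests. Apart from swapping within pairs, these take libraries as exchangeable and allow for neither the replicate number nor the label set. The script was tested on simulated data with independent libraries, which cannot show its error rate for paired libraries such as these. The named genes were all 7 members, the 3 nearest profiles to each, list genes that were called, and Cilk1, with any other gene said to be named after its value was seen. Figures were drawn with matplotlib 3.10.9 in Python 3.11.15.

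Deviations from the genotype mean of same-numbered wild-type and Cilk1-/- libraries had correlations of -0.74, -0.89, -0.85 and -0.79 over all genes. In the 84 genes with a pair listed at 0, leaving that pair out, they were 0.56, 0.56, 0.58 and 0.30 (over 29, 72, 67 and 84 genes), so the numbers were taken to pair these libraries. Compound mutants were placed in a block by number only, and values given with the block use that placement unless stated. The extraction protocol in the labels differs between 2 sets: replicates 1 to 3 of wild type and Cilk1-/- (set 1), and their replicate 4 with all compound mutants (set 2). Alternatives were fits on 2 genotypes, the block in 2 placements, the label set, plain eBayes, a filter at a mean of 1, quantile normalization, median centring, left-out libraries and a pseudocount of 0.1. Positions are from GENCODE (GRCm38).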

Additional observations from a re-analysis of the deposited data

How the results depend on the processing

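Across 21 alternatives, no member was called in Cilk1-/- against wild type. The call of Cdkn1a between compound mutant and wild type was lost, at a difference of 1.11, in the fit on 2 genotypes, with the replicate block, with the block that puts the compound mutants in pair 4 (adjusted p = 0.608) and with label set as a term, and, at 0.71, without compound mutant replicates 1 and 3, so 0 members were called there. Leaving out 1 library at a time gave 0.93 to 1.31 (0 to 1 members called). Cdkn1a between compound mutant and Cilk1-/- was called with median centring (0.86, adjusted p = 0.0484, 1 member called) and in 2 of the fits that left out 1 library (0.67 to 1.06, 0 to 1 members), those without wild-type replicate 1 and without compound mutant replicate 2. With no minimum fold Eda was the 1 member called there, and with an unadjusted p it was Cdkn1a (1 member).

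Signs turned only for differences that were not called. Between the mutants, leaving out 1 library gave -0.0316 to 0.49 for Dkk4, -0.35 to 0.10 for Edar, -0.55 to 0.10 for Edaradd, -0.43 to 0.0782 for Fgf4 and -0.0622 to 0.59 for Fgf9, which was -0.10 without compound mutant replicates 1 and 3. Against the wild type the compound mutant gave -0.44 to 0.0790 for Dkk4, -0.42 to 0.23 for Edaradd and -0.10 to 0.42 for Fgf4.

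Counts over all genes moved far more. For Cilk1-/- against wild type 62 genes were called, 130 in the fit on 2 genotypes, 4 with either replicate block, 37 with label set, 123 with the pseudocount of 0.1, 130 without compound mutant replicates 1 and 3, 409 with no minimum fold, 126 with an unadjusted p and 15 (without Cilk1-/- replicate 4) to 95 (without compound mutant replicate 3). For the compound mutant against wild type the count was 209, and under the same settings 34, 26 and 0 (pair 4) with the blocks, 18 with label set, 547 with the pseudocount, 1102 with no minimum fold, 499 with an unadjusted p and 80 (without wild-type replicate 4) to 671 (without compound mutant replicate 2). Between the mutants it was 91, and 1 on 2 genotypes, 2 and 0 with the blocks, 1 with label set, 294 with the pseudocount, 285 without compound mutant replicates 1 and 3, 558 with no minimum fold, 350 with an unadjusted p and 36 (without Cilk1-/- replicate 3) to 360 (without compound mutant replicate 2 or 3). Higher genes made up 41.9% of those called in Cilk1-/-, 56.9% with the pseudocount of 0.1 and 33.9% after quantile normalization. The block changed no other call of a member. The cause of these shifts was not tested. Low genes such as Fgf4 are limited by the spread between libraries, since depth is unknown.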

Other observations

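The mean of each wild-type library and the Cilk1-/- library of the same number varied less than the libraries of either genotype did. For Fgf9, the 4 means were between 1.78 and 1.83, with an SD of 0.0229, against an SD of 0.275 over the wild-type and 0.237 over the Cilk1-/- libraries. For Eda the SD of the means was 0.0120, against 0.0658 and 0.0691, and for Edar it was 0.0709, against 0.201 and 0.312. For Cdkn1a, it was 0.0779, against 0.345 and 0.189. In pairs 2 and 4 all 7 members deviated from their genotype means in opposite directions within the pair, and in pairs 1 and 3 it was 6 of 7. The SD of single members in these 2 genotypes therefore contains a part that is shared, with opposite sign, by libraries of the same number. Removing a replicate term would by itself give such opposite deviations, so they may come from processing, which was not tested.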
